A study of Homo sapiens with 15 samples.

Results

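The transcripts described here encode 9 enzymes that break down glycosaminoglycans in the lysosome. They are NAGLU, SGSH, IDS, IDUA, HGSNAT, GUSB, ARSB, ARSK and GALNS, taken by symbol from the 59608 genes of the table, and all 9 were among the 13561 genes tested. They were chosen by their function and on their values across the doses in an earlier analysis of the same 15 libraries, so the fold changes and adjusted p-values given for them are a description of these libraries and no independent support for a direction. The RNA came from MDA-MB-231, a human breast tumor line of mesenchymal, hormone receptor-negative character. Its cells were exposed in 2D dishes for 6 h to ZJ-101, a compound made after a marine natural product, at 0.5, 5, 50 or 500 nM, or to the vehicle DMSO. Each of the 5 groups held 3 dishes of the same line, labelled as replicates, and no group carried a further treatment or genetic change. All cells came from 1 line at 1 time point, which limits what the doses can stand for.

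Glycosaminoglycans such as heparan, dermatan, chondroitin and keratan sulfate are long sugar chains with sulfate groups that are taken into the lysosome and dismantled from one end. Most of the enzymes remove 1 kind of sulfate or sugar, HGSNAT adds an acetyl group, and each step prepares the chain for the next. Inherited loss of most of these enzymes causes a mucopolysaccharidosis, a storage disease in which undegraded chains fill the lysosome. Most are soluble proteins that pass through the ER and the Golgi apparatus, where they receive the mannose-6-phosphate tag that directs them to the lysosome, whereas HGSNAT sits in the lysosomal membrane.

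Levels are given as normalized counts, which are reads per gene divided by a size factor of the library. A gene is said to fall or rise, or to pass the test, where its adjusted p by limma with Benjamini-Hochberg adjustment over all genes tested was under 0.05. Transcripts of 3 of the 9 enzymes fell with ZJ-101. SGSH, which takes the sulfate from the amino group of glucosamine in heparan sulfate, and NAGLU, which removes the N-acetylglucosamine that SGSH and HGSNAT leave exposed, dropped over the dose range to 54.4% ± 6.17 (SD, n = 3) and 48.1% ± 4.35 of their DMSO means at 500 nM. ARSK, the sulfatase that acts on glucuronate residues, was already at 45.4% ± 0.414 of DMSO at 5 nM and lay at 53.4% ± 2.53 at 500 nM. HGSNAT, the acetyltransferase whose step lies between those of SGSH and NAGLU, was at 107% ± 3.90 of DMSO at 500 nM and did not pass the test at any dose. IDS, IDUA, GUSB, ARSB and GALNS stayed between 85.4% and 106% of their DMSO means at every dose and did not pass the test either. The values describe RNA pooled from whole dishes, so fewer cells with a transcript and less of it in each cell cannot be told apart.

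The 15 libraries held 12415519 to 15284762 reads on genes (median 13320354), recovered from the deposited normalized counts, with size factors of 0.916 to 1.13 and a mitochondrial share of 0.889% to 2.06%. When the reads of replicates were compared over genes, chi-square divided by its degrees of freedom was 2.04 to 6.27 for most pairs. The pairs with replicate 2 of 0.5 nM gave 11.1 and 16.6, so this library stood apart. No pair within a group was a duplicate, and libraries of different groups were not compared in this way. Among markers of the line, VIM, CD44, AXL, CAV1 and MSN had DMSO means of 7954 to 16306 normalized counts. Of 5 luminal and epithelial markers, ESR1 was at 0 in DMSO and PGR at 14.0, while GATA3, CDH1 and EPCAM were measured at 144, 196 and 293 normalized counts.

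The genome sequence next to the gene starts is shown here for the enzymes whose upstream region holds CACGTG, the E-box core of the lysosomal gene element that TFEB and its relatives bind. RefSeq promoter entries (GRCh38.p14) were matched for 6 of the 9 genes (IDUA, ARSB, ARSK, GUSB, GALNS and IDS); the others are NAGLU, SGSH and HGSNAT. Within 250 bases before a listed start, CACGTG, which reads the same on both strands, was present for ARSB, ARSK and GALNS, 3 of the 6 genes, and in 6.34% of 35116 promoter entries of that length. Each gene was counted once over all its listed starts and the share was taken over single entries, so the units differ. Each window below is written in the direction of its gene with the matched letters in capitals.
ARSK, chr5:95554997-95555026, plus strand: ccaggactcattCACGTGactggaagtggc
ARSB, chr5:78986101-78986130, minus strand: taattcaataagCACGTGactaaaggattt
GALNS, chr16:88857104-88857133, minus strand: caggcaccgcgtCACGTGacccgccgctgg
GALNS, chr16:88856962-88856991, minus strand: cgccccgcgagtCACGTGgccgtccaggcc

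The match upstream of ARSK begins 92 bases before its start and lies within SKIC3, the gene on the opposite strand. All 35 transcripts of SKIC3 that span the window have exon bases in it, and 3 have exon bases in the matched letters. For ARSB the match begins 160 bases before a listed start, with no annotated gene in the window. The region before the other listed start of ARSB holds no CACGTG. The GALNS matches begin 174 and 32 bases before the start. The first overlaps exons of 4 of the 9 transcripts of TRAPPC2L, on the opposite strand, that span its window, and the matched letters of the second lie in no annotated exon. The longer form TCACGTG, which contains CACGTG, was found on either strand in the same 3 genes and in 3.31% of promoter entries, units that differ as above. The box CCAAT was on neither strand in any of the 6 genes and in 32% of all promoters. The same held for the unfolded protein response motif TGACGTG, present in 1.68%, and for the ER stress element, present in 0.074%, searched as CCAAT followed after 9 bases by the letters CCACG. A match is a description of letters only. Of these 3 genes, ARSK fell, and ARSB and GALNS did not pass the test.

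ARSK (chromosome 5, 95555101 to 95605102, plus strand, protein-coding) shares no exon bases with another gene. In DMSO it had 396, 378 and 361 normalized counts in replicates 1, 2 and 3. With 0.5 nM ZJ-101 it had 328, 285 and 274, and with 5 nM 172, 173 and 170. All 3 libraries at 0.5 nM were below every DMSO library, and the 3 at 5 nM lay close together and well below those at 0.5 nM. With 50 nM the counts were 187, 164 and 208, and with 500 nM 200, 194 and 213. These 2 groups overlapped each other and stayed below every library of 0.5 nM and DMSO. The share of all genes with such a separation was computed only for 500 nM against DMSO and is given below.

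The log2 fold change of ARSK against DMSO was -0.36 (SE 0.09) at 0.5 nM, with an adjusted p of 0.070 by limma with Benjamini-Hochberg adjustment. At 5 nM it was -1.13 (95% interval -1.33 to -0.94, adjusted p = 3.2e-06). Among the 6795 genes lower than DMSO at 5 nM, ARSK had the smallest p, and it was number 16 of all 13561 genes in the order of fold change. At 50 nM its log2 fold change was -1.02 (adjusted p = 3.9e-07), number 36 in that order, and at 500 nM -0.90 (adjusted p = 8.2e-07), number 147. Its fold change thus differed by 0.12 between 50 and 500 nM, while 503 and 1366 genes of all those tested fell at these doses.

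SGSH (chromosome 17, 80206716 to 80220923, minus strand, protein-coding) shares 3.57% of its exon bases with genes on the opposite strand, mainly CARD14. It had 548, 554 and 538 normalized counts in DMSO. The counts were 482, 510 and 503 with 0.5 nM and 384, 365 and 415 with 5 nM. Each dose group up to 50 nM lay below all libraries of the next lower dose. At 50 nM the libraries had 314, 327 and 261, and at 500 nM 284, 272 and 336, which overlapped. The share of all genes whose libraries separate at each of these steps was not computed. By limma, SGSH did not pass from DMSO to 0.5 nM (adjusted p = 0.52) or from 0.5 to 5 nM (0.23). The log2 fold changes of SGSH against DMSO were -0.13 (adjusted p = 0.52), -0.49 (0.0047), -0.87 (2.0e-06) and -0.88 (95% interval -1.07 to -0.70, adjusted p = 6.5e-07) at the 4 doses by limma with Benjamini-Hochberg adjustment.

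NAGLU (chromosome 17, 42536241 to 42544449, plus strand, protein-coding) shares 12.9% of its exon bases with a non-coding gene on the same strand, and reads there cannot be assigned to one of them. It had 405, 415 and 370 normalized counts in DMSO. With 0.5 nM the counts were 360, 392 and 313, which overlapped DMSO, and with 5 nM 324, 280 and 335, which were all below it. With 50 nM they were 190, 188 and 190, and with 500 nM 190, 174 and 208. All 6 libraries of the 2 higher doses were below every other library. The share of all genes with such a separation was not computed at 5 or 50 nM. The log2 fold changes of NAGLU were -0.16 (adjusted p = 0.45), -0.34 (0.068), -1.06 (3.5e-07) and -1.05 (95% interval -1.25 to -0.86, adjusted p = 1.5e-07) by limma with Benjamini-Hochberg adjustment. At 5 nM NAGLU passed with DESeq2 (adjusted p = 0.043), without replicate 2 (0.027) or replicate 3 (0.039) of 0.5 nM, and with the libraries of 5 nM and DMSO alone (0.013). It was number 31 in the order of fold change at 50 nM and number 91 at 500 nM.

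**Figure D1:**
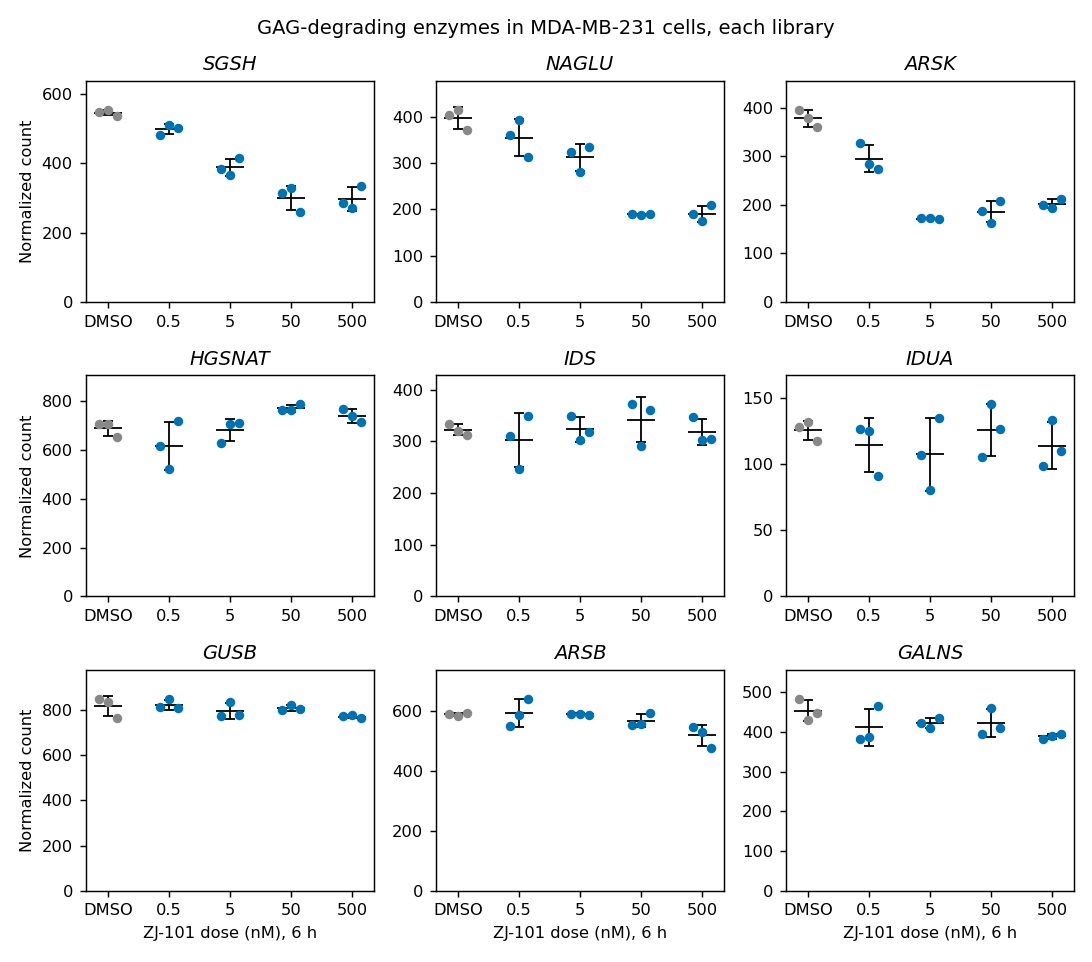
Normalized counts (vertical axis, from 0, scaled per gene) of the 9 enzyme transcripts in every library by ZJ-101 dose in nM, with DMSO in grey and treated libraries in blue; horizontal lines are means and bars are SD, n = 3. The 5 nM libraries of ARSK sit at 170 to 173, and those of NAGLU reach 190 only at 50 nM, while the panels of the other 6 enzymes show means between 85.4% and 112% of DMSO.

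Neighbouring doses were also compared with each other, in the same fit of all 5 groups, so that the DMSO libraries enter the estimate of the spread and not the difference. From 0.5 to 5 nM, ARSK changed by -0.78 (SE 0.09, adjusted p = 0.00049 by limma with Benjamini-Hochberg adjustment), and it was 1 of the 9 members and 1 of only 12 genes, 0.0885% of those tested, that fell in this step. SGSH (-0.36, adjusted p = 0.23) and NAGLU (-0.18, 0.66) did not pass there. From 5 to 50 nM, NAGLU changed by -0.72 (SE 0.09, 9.1e-05) and SGSH by -0.37 (SE 0.09, 0.016), making 2 of 9 against 2.39% of all genes, while ARSK had a log2 difference of 0.11 (95% interval -0.08 to 0.30, 0.60). From 50 to 500 nM none of the 9 passed in either direction, against 2.28% of all genes. The differences of NAGLU, SGSH and ARSK in this last step were 0.005, -0.01 and 0.12, with adjusted p of 0.62 to 0.99. Whether the 3 genes differ from each other in dose pattern was not tested.

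**Figure D2:**
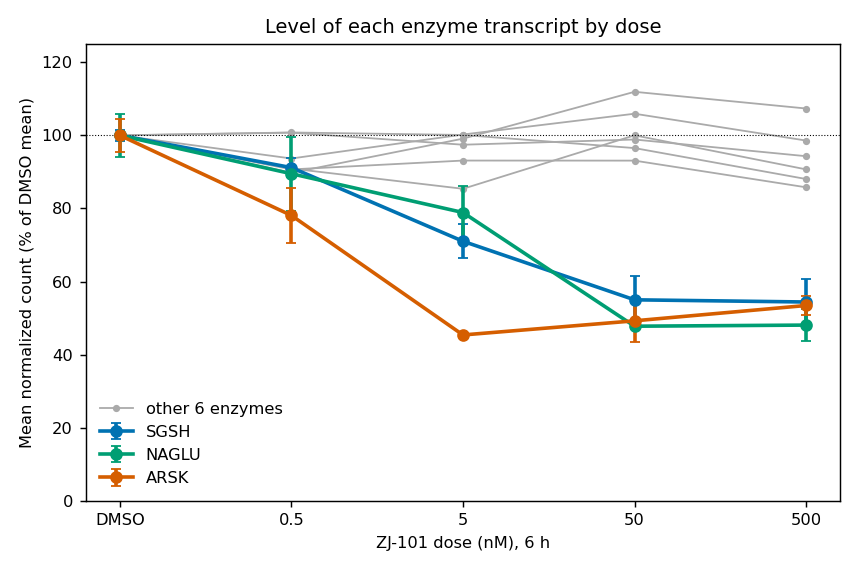
Mean normalized count as a percent of the DMSO mean (vertical axis, from 0) by ZJ-101 dose in nM for SGSH, NAGLU and ARSK in colour and the other 6 enzymes in grey; bars are SD of 3 libraries. ARSK is at 78.1% at 0.5 nM and 45.4% at 5 nM, where SGSH is at 71.0% and NAGLU at 78.9%, and the 3 lines lie between 47.8% and 55% at 50 nM.

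Counted over the 9 genes, 0 were lower than DMSO past an adjusted p of 0.05 at 0.5 nM (0.922% of all genes tested were), and 1, ARSK, had an adjusted p under 0.05 when DESeq2 was used in place of limma (0.032). Without replicate 2 of 50 nM ARSK also passed at 0.5 nM (0.039), and without replicate 3 of 0.5 nM HGSNAT did, with a log2 fold change of -0.28 (0.048), so that 1 library decided each count. Without adjustment, ARSK had a p of 0.00098 at that dose and the other 8 had p of 0.063 or more. At 5 nM 2 of 9, ARSK and SGSH, fell (1.71% of all genes), or 3 under the settings in which NAGLU passed, and at 50 nM 3 of 9 (3.71%). At 500 nM 3 of 9 fell (10.1% of all genes) and 0 rose (7.69%). None rose at 50 nM (2.29%). Along the rank of the dose, 3 of 9 had a falling slope (9.33%) and 0 a rising one (8.23%), with slopes per dose step of -0.30 for NAGLU (adjusted p = 5.8e-07), -0.25 for SGSH (2.2e-07) and -0.25 for ARSK (0.00054). ARSB made it 4 of 9 with DESeq2, with TMM scaling and with a minimum mean of 50. Among the 12 treated libraries alone, the slope of ARSK was -0.15 (adjusted p = 0.097), and HGSNAT passed with a rising slope of 0.10 (0.030), beside 0.05 (0.11) over all 15 libraries. As the genes were picked with these contrasts known, nothing is read from the counts.

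ARSB and GALNS, which take sulfate from N-acetylgalactosamine in dermatan and chondroitin sulfate (ARSB) and from keratan and chondroitin sulfate (GALNS), were near the threshold at 500 nM. ARSB (chromosome 5, 78777209 to 78986087, minus strand) had 591, 583 and 592 normalized counts in DMSO and 548, 529 and 478 at 500 nM. GALNS (chromosome 16, 88813734 to 88856970, minus strand) had 483, 431 and 446 in DMSO and 383, 388 and 396 at 500 nM. Both were lower in all 3 libraries of 500 nM than in any DMSO library, and overlapped DMSO at every lower dose. The log2 fold change was -0.19 for ARSB (95% interval -0.32 to -0.05, adjusted p = 0.051 by limma with Benjamini-Hochberg adjustment) and -0.22 for GALNS (-0.38 to -0.05, 0.063). Leaving out replicate 2 or replicate 3 of 0.5 nM, libraries that belong to neither group, put both past the threshold and raised the count of falling members at 500 nM from 3 to 5. With the libraries of 500 nM and DMSO alone the count was also 5.

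With NAGLU, SGSH and ARSK, 5 of 9 had every 500 nM library below every DMSO library, as did 19.6% of all genes tested. HGSNAT was the 1 member with every 500 nM library above every DMSO library, as were 18.9% of all genes. The gene lies on chromosome 8, 43140464 to 43202855, plus strand. It had 707, 705 and 653 normalized counts in DMSO, 762, 763 and 787 at 50 nM, and 766, 738 and 713 at 500 nM. The separation was small beside the spread at 0.5 nM, where the libraries had 616, 521 and 717, the lowest being the one that stood apart. Its log2 fold change at 500 nM was 0.10 (95% interval -0.07 to 0.28, adjusted p = 0.47 by limma with Benjamini-Hochberg adjustment).

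GUSB, the beta-glucuronidase that also serves as a common reference gene, had 763 to 849 normalized counts over all 15 libraries and a log2 fold change of -0.08 at 500 nM (95% interval -0.19 to 0.03, adjusted p = 0.31 by limma with Benjamini-Hochberg adjustment). This was the narrowest interval of the 9. GUSB lies on chromosome 7, 65960684 to 65982215, minus strand, and stretches of up to 6.32% of its transcript match pseudogenes or other genes with at least 95% identity, where reads could be split. IDS (chromosome X, 149476988 to 149521096, minus strand), which removes sulfate from iduronate, ranged from 246 to 372 with a log2 fold change of -0.02 (-0.26 to 0.21, 0.92). On IDS, 75.9% of exon bases are shared on the same strand with other annotated genes, nearly all with 1 read-through protein-coding gene, so its counts are uncertain. IDUA (chromosome 4, 986997 to 1004564, plus strand), which removes the iduronate itself, was the least abundant at 80.2 to 145 normalized counts, with a log2 fold change of -0.15 and the widest interval (-0.52 to 0.22, 0.64). It shares 13.2% of its exon bases with SLC26A1 on the opposite strand. For these 3 genes the libraries of every dose overlapped those of DMSO, and a missed threshold does not show equal levels.

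**Figure D3:**
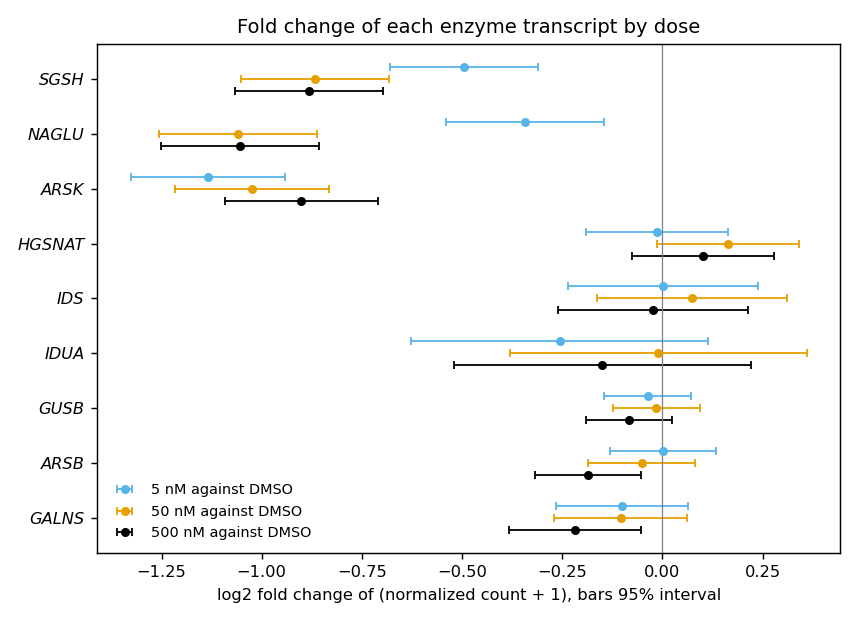
Log2 fold change of normalized count + 1 against DMSO (horizontal axis) for each of the 9 enzymes at 5 nM (blue), 50 nM (orange) and 500 nM (black); points are limma estimates and bars 95% intervals. ARSK is lowest at 5 nM (-1.13), NAGLU and SGSH move from -0.34 and -0.49 at 5 nM to -1.05 and -0.88 at 500 nM, and the intervals of the other 6 lie between -0.63 and 0.36.

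To set the levels of different genes side by side, recovered reads were scaled to the length of the merged exons and to the reads on genes of each library (RPKM). The lengths included exon bases shared on the same strand with other genes, 75.9% for IDS and 12.9% for NAGLU, so their places in the order are uncertain. In DMSO the order was GUSB with 15.5 ± 0.801 RPKM (SD, n = 3), NAGLU with 10.0 ± 0.556, ARSK with 6.48 ± 0.275, SGSH with 6.07 ± 0.0768, HGSNAT with 5.70 ± 0.233, ARSB with 4.90 ± 0.0538, GALNS with 4.0 ± 0.231, IDS with 2.57 ± 0.0799 and IDUA with 2.29 ± 0.124. The median of the tested genes with a length was 5.66 RPKM, so the members lay on both sides of it. At 500 nM HGSNAT came second with 6.14 ± 0.189, ahead of NAGLU with 4.82 ± 0.442 and ARSB with 4.32 ± 0.284. ARSK (3.47 ± 0.172), GALNS (3.44 ± 0.0737) and SGSH (3.31 ± 0.385) followed. The ranges of mean ± SD of these 3 overlapped, as did those of NAGLU and ARSB and those of IDS and IDUA. In DMSO the ranges of no neighbours in the order overlapped.

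Other enzymes of the same pathway were taken from a list of 14 further genes that act on glycosaminoglycans, of which 11 were tested. At 500 nM 6 of the 11 fell and 0 rose, beside 10.1% and 7.69% of all genes tested, with a median log2 fold change of -0.25 over the 11 beside 0.003 over all genes. The largest falls were in CEMIP2 (-0.96, adjusted p = 2.9e-09) and CEMIP (-0.75, 4.2e-05), which act on hyaluronan, followed by GLB1, the lysosomal beta-galactosidase (-0.54, 1.7e-06), and HYAL2, a hyaluronidase (-0.39, 0.0025), by limma with Benjamini-Hochberg adjustment. CEMIP did not follow the dose. It had means of 781 in DMSO, 451 at 0.5 nM, 481 at 5 nM, 816 at 50 nM and 466 at 500 nM.

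Among 8 tested of 12 other sulfatases and their activating enzymes, 6 fell and 0 rose at 500 nM (10.1% and 7.69% of all genes), with a median of -0.39. They included ARSL (-0.89, adjusted p = 0.00023), ARSA, the sulfatase of sulfatide (-0.44, 0.014), ARSJ (-0.39, 4.6e-05) and SUMF1 (-0.41, 0.0025), by limma with Benjamini-Hochberg adjustment. SUMF1 makes the formylglycine residue without which no sulfatase is active, SGSH, ARSK, ARSB, GALNS and IDS included. In DMSO SUMF1 stood at 435 ± 13.6 normalized counts (SD, n = 3), and at 500 nM at 329 ± 34.2. At 5 nM SUMF1 was at 408 ± 22 and did not pass (-0.09, adjusted p = 0.73 by limma). A link between SUMF1 and the levels of sulfatase transcripts was not tested.

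Of 7 genes that tag enzymes with mannose-6-phosphate or deliver them to the lysosome, 4 fell and 1 rose at 500 nM (10.1% and 7.69% of all genes), with a median of -0.28. SORT1, a sorting receptor, fell by 0.75 on the log2 scale (adjusted p = 3.7e-07), NAGPA, which uncovers the tag, by 0.66 and SCARB2, a lysosomal membrane protein, by 0.43. IGF2R, the large mannose-6-phosphate receptor, rose by 0.39 (adjusted p = 0.020), by limma with Benjamini-Hochberg adjustment. Its libraries at 500 nM spread widely, with a mean of 5471 ± 808 against 4147 ± 146 in DMSO.

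Of 21 tested among 22 other lysosomal hydrolases, 12 fell and 0 rose at 500 nM (10.1% and 7.69% of all genes), with a median of -0.20. The largest were FUCA1 (-0.53, adjusted p = 1.7e-05), ACP2 (-0.48, 1.7e-05), GALC (-0.41, 1.0e-04) and SMPD1 (-0.37, 0.0015), by limma with Benjamini-Hochberg adjustment. All of these were smaller than the falls of NAGLU, ARSK and SGSH, the 3 members that fell. Over all 9 members the median at 500 nM was -0.19, so the members as a set were not lower than this list. NEU1 was listed at 0 in every library, and whether its reads were lost in mapping or counting was not tested. At 50 nM 4 of the 21 fell (3.71% of all genes) and at 5 nM 2 (1.71%). Among 4 tested regulators of lysosomal genes, MITF rose by 0.24 (adjusted p = 0.0055) and ZKSCAN3 fell by 0.32 (0.042), while TFEB had 57.0 ± 4.03 normalized counts in DMSO and 40.3 ± 6.67 at 500 nM (log2 fold change -0.50, adjusted p = 0.056). TFE3, with the highest counts of the 4, had 1946 ± 30.4 and 2008 ± 96.3 (0.04, adjusted p = 0.57 by limma) and did not pass. Over all tested genes 1043 rose and 1366 fell at 500 nM. These lists were written with results of the same libraries known, and their counts are descriptions.

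**Figure D4:**
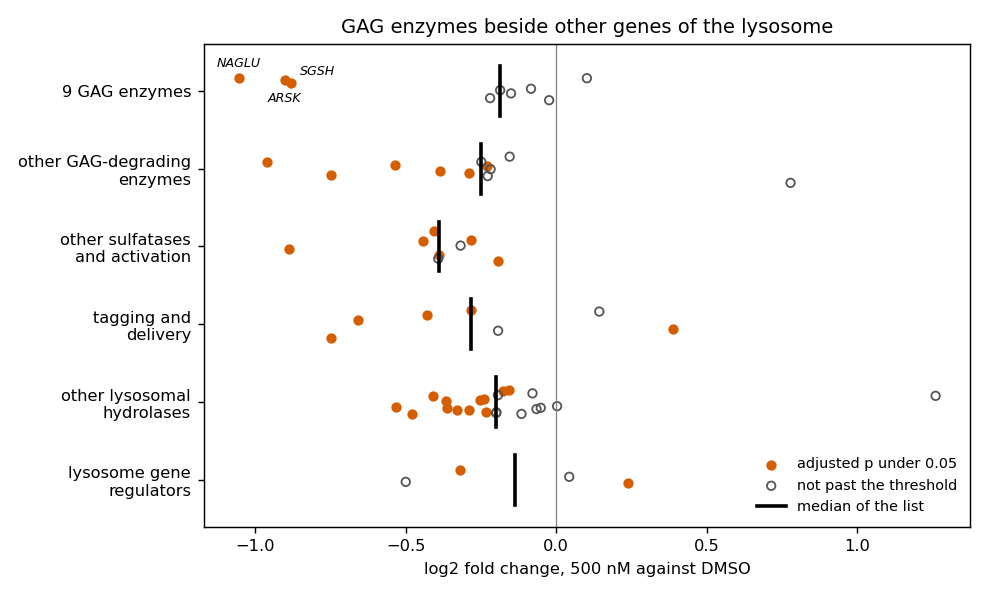
Log2 fold change at 500 nM against DMSO (horizontal axis) of each tested gene of the 9 enzymes and of 5 further lists, 1 row per list with points spread vertically for legibility; filled points have an adjusted p under 0.05 and black lines mark medians. NAGLU (-1.05) lies left of every other point, CEMIP2 (-0.96), ARSK (-0.90), ARSL (-0.89) and SGSH (-0.88) follow, and the list medians run from -0.39 to -0.14.

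The nearest tested genes on both sides of the falling members were looked up after their values had been seen. SKIC3, listed as TTC37, starts 51 bases from ARSK on the opposite strand. The DMSO libraries averaged 1203 ± 53.5 normalized counts of it (SD, n = 3) and those of 500 nM 1288 ± 29.3 (log2 fold change 0.10, adjusted p = 0.24 by limma with Benjamini-Hochberg adjustment). It did not pass at the lower doses either, with fold changes of -0.07, 0.03 and 0.08. On the other side of ARSK, RFESD had a log2 fold change of 0.27 at 500 nM (adjusted p = 0.64). The gene closest to NAGLU, HSD17B1P1 at 2315 bases, had one of -0.21 (0.58). ATP6V0A1, a subunit of the proton pump that acidifies lysosomes, ends 13659 bases away on the other side of NAGLU, on the same strand, and went the other way, from 664 ± 32.1 to 1168 ± 54.2 normalized counts (log2 fold change 0.81, adjusted p = 2.9e-09). SLC26A11, which overlaps the start of SGSH on the opposite strand, had 201 ± 8.07 and 242 ± 17.4 (0.27, 0.045), and EIF4A3 on the other side had a log2 fold change of -0.002 (0.98).

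Genes whose pattern was most like that of a member were ranked by Pearson's r of log2(normalized count + 1) over the 15 libraries, which share their 5 groups, so r is a description. For NAGLU, the member with the largest fall at 500 nM, they were MATN2 (r = 0.97), CHPF (0.97) and TPBG (0.96), which changed by -1.66, -1.75 and -1.07 at 500 nM. For HGSNAT, with the largest upward difference at 500 nM, they were PPFIA1 (0.95), ITGB4 (0.93) and PTPRM (0.90). Their log2 fold changes were 0.06, 0.13 and 0.02 at 500 nM, and -0.12, -0.24 and -0.27 at 0.5 nM. HGSNAT itself was at -0.17 at 0.5 nM, the dose of the library that stood apart. How far that library sets these r was not tested. The same ranking, added after the values had been seen, gave AMIGO1 (0.93), DNAJB11 (0.93) and the lysosomal phosphatase ACP2 (0.91) for ARSK, and RASL11A, ERLEC1 and PDIA6 (0.96 each) for SGSH. DNAJB11, ERLEC1 and PDIA6 encode proteins of the ER lumen, while the genes ranked first were AMIGO1 and RASL11A. The share of ER lumen genes among all genes with such r was not computed. Between the falling members r was 0.95 for NAGLU and SGSH, 0.78 for SGSH and ARSK and 0.70 for NAGLU and ARSK.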

How the data were processed

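RNA of 15 dishes was measured. Libraries of poly-A RNA were sequenced in pairs; the authors mapped the reads with HISAT2 (hg38), took gene counts from htseq-count with GENCODE names and scaled each library by a DESeq2 size factor; tool versions and strandedness are not given in the sources used here. The deposited values are therefore a signal, counts divided by size factors, and 1 line without a gene was left out. Recovered reads were whole for 100.0% of values within 0.001. Groups and replicates came from the sample titles, and the numbers did not pair the libraries: deviations of same-numbered samples from their group means correlated by -0.09 to 0.10 over 30 pairs.

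limma 3.58.1 (R 4.3.3, trend) was run on log2(normalized count + 1) of 13561 genes (mean over all libraries 10 or more), with all 5 groups in 1 fit (10 residual degrees of freedom) and Benjamini-Hochberg adjustment over all of them, threshold 0.05. A separate fit gave the slope on dose rank. The test was checked on simulated data. P-values measure the spread between dishes of 1 line. Alternatives were edgeR 4.0.16 and DESeq2 1.42.0 on recovered reads, other pseudocounts, filters and scalings, the replicate block, subsets of groups and each library left out. Positions, exon overlaps and lengths came from GENCODE 44 on GRCh38, and lengths were matched for 94.8% of tested genes. Copies were searched with minimap2 2.31-r1302 and blastn 2.17.0, and 0 were found on alternate contigs. Named were all members, up to 4 called genes of each list by size of change at 500 nM, all 4 tested regulators, and the 3 genes most like the members with the largest rise and fall. Of the listed genes, 2 are not reported here by name. Members and lists were chosen with earlier results of these data known.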

Additional observations from a re-analysis of the deposited data

How the results depend on the processing

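The fold changes of NAGLU and ARSK at 50 and 500 nM, of ARSK at 5 nM and of SGSH at all 3 of these doses kept their direction and stayed past the threshold in all 25 alternatives, with log2 values of -1.17 to -1.10 for ARSK at 5 nM, -1.12 to -0.99 for NAGLU at 500 nM and -0.97 to -0.82 for SGSH at 500 nM. The count of members past the threshold at 0.5 nM was 0, 1 with DESeq2 (ARSK), and 0 to 1 when single libraries were left out (ARSK without replicate 2 of 50 nM, HGSNAT without replicate 3 of 0.5 nM). At 5 nM it was 2, and 3 with NAGLU under DESeq2, with the libraries of the dose and DMSO alone, and without replicate 2 or 3 of 0.5 nM. At 500 nM it was 3, 5 with the libraries of the dose and DMSO alone, and 3 to 5 when single libraries were left out, the 5 coming without replicate 2 or 3 of 0.5 nM. It was 4 with edgeR, with TMM scaling and with a minimum mean of 50. The genes gained at 500 nM were ARSB and GALNS, past the threshold in 8 and 4 of the 25 alternatives. For the slope it was 4, with ARSB, under DESeq2, TMM scaling, a minimum mean of 50, and without replicate 1 or 2 of 0.5 nM or replicate 3 of 50 nM. With the replicate block the counts were 0, 2, 3 and 3 from the lowest to the highest dose and 3 for the slope, the same as without it. Over the 12 treated libraries alone the slope of ARSK was -0.15 (adjusted p = 0.097 by limma) and that of HGSNAT was past the threshold, so 3 members were counted there as well but not the same genes. IDS at 500 nM (-0.02) ranged from -0.0863 to 0.0092 when single libraries were left out and was above 0 without DMSO replicate 1 (0.0033) and without replicate 2 (0.0092) or 3 (0.0082) of 500 nM; the cause was not tested. With 3 libraries a group, intervals of about 0.2 to 0.4 on either side limit what can be said of IDS and IDUA.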
